A study of Mus musculus with 3 samples.

Results

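The genes described here make cholesterol and fatty acids, or set how much of both a cell makes. They were 29 genes taken by symbol: 18 enzymes that build sterols, 6 genes of sterol sensing and transport and 5 genes of fatty acid synthesis. Every one of these 29 had a row in all 3 gene tables, out of 27998 genes measured. The study profiled single regulatory T cells (Tregs) from adult mice of the Foxp3-EGFP reporter strain C.Cg-Foxp3tm2Tch/J, in which Tregs carry green fluorescent protein. Tregs are the branch of CD4 T cells that holds immune reactions in check. Epidermis, dermis and lymph node each gave 1 library of sorted GFP+ CD4+ CD3+ CD45+ cells, and all 3 groups carried the same reporter allele with no other treatment named. Thermolysin split the skin layers, the dermis was also digested with collagenase, and the lymph node was mashed. Both skin libraries used the 10x Genomics 3′ v3 kit and the lymph node library the v2 kit, so tissue, kit and handling cannot be told apart in a comparison with lymph node.

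Animal cells make sterols from acetyl-CoA through mevalonate and squalene. The transcription factor SREBP-2, from Srebf2, switches these genes on together when membranes hold little sterol, and SREBP-1, from Srebf1, does so mainly for fatty acid genes. The escort protein Scap carries both factors to the Golgi for activation, and the Insig proteins hold it back when sterol is plentiful. T cells are known to raise both arms when they grow and divide.

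A cell was kept with at least 500 UMIs (unique molecular identifiers, 1 per captured transcript) and at most 10% mitochondrial UMIs. This left 297 epidermal, 875 dermal and 9400 lymph node cells, with median depths of 6671, 4726 and 3022 UMIs. Levels are UMIs summed over the kept cells of a library as counts per 1000000 UMIs (CPM), with an exact Poisson 95% interval. Ratios of 2 libraries carry an exact 95% interval based on how the counts split between them, and both kinds of interval cover counting error only. With 1 library per tissue there was no replicate and no test between tissues. The words counted as higher (or lower) are kept for genes whose CPM ratio reached 2-fold, with 20 CPM or more in the higher library. The 3′ counts are not scaled to transcript length, so levels are compared between libraries and not between genes.

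All 4 T cell marker genes and all 5 Treg marker genes were found in each library, at summed levels of 2408, 2257 and 3017 CPM and of 3624, 5197 and 1656 CPM in epidermis, dermis and lymph node. Foxp3 itself stood at 91.6, 146 and 21.8 CPM, with a UMI in 118 of 297, 411 of 875 and 674 of 9400 cells. Markers of cells that make much lipid were low. The sebocyte list summed to 79.4, 66.3 and 31.0 CPM, of which Soat1, also made by T cells, was 59.0, 54.0 and 19.2 CPM. Of its 10 genes, the epidermal library held UMIs of 8, the dermal library of 4 and the lymph node library of 6. The defining sebocyte gene Mc5r was at 0 throughout. Krt79, Elovl3 and Scd3 had 7, 2 and 3 epidermal UMIs and none elsewhere, while Far2 had 8 UMIs from lymph node alone. The source of these UMIs was not tested. The adipocyte list summed to 5.90, 59.4 and 0.699 CPM.

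Some barcodes in the epidermal library nearly lacked T cell transcripts. A gate that asked for 2 or more T cell UMIs, and for no more than 3% of UMIs on markers of other types, left out 26 epidermal, 37 dermal and 100 lymph node cells. The 26 epidermal cells held 16234 UMIs, of which 2 were of T cell genes and 667 of the airway gene Scgb1a1, a gene picked out after its values were seen. Their sterol enzymes stood at 2402 CPM and their fatty acid genes at 1355 CPM, against 465 and 106 CPM inside the gate. The 37 dermal cells stood at 350 CPM of sterol enzymes, near the 335 CPM inside the gate. Their fatty acid genes stood at 206 CPM (126 to 318, on 20 UMIs), against 89.3 CPM (80.9 to 98.5) inside. Values with this gate are given beside the main epidermal results.

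The skin libraries also shared cell barcodes, and both held cells with Xist and cells with Y-linked transcripts. Epidermis and dermis had 43 barcodes in common, dermis and lymph node 1, and epidermis and lymph node 0. In 34 of the 43 the epidermal copy was the deeper, at a median of 14375.5 against 1167 UMIs. Cells with Xist alone numbered 111 in epidermis and 723 in dermis, and cells with Y-linked transcripts alone 101 and 55. Lymph node had 7086 cells with Xist alone and no cell with Y-linked transcripts alone. The mix of such cells thus also differs with tissue in comparisons with lymph node over all kept cells. The sources used here do not give the number of animals behind each library.

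Over all kept cells, sterol enzymes were higher in epidermal than in dermal Tregs, by an amount that depended on which cells were summed. Summed, the 18 enzymes stood at 479 CPM (450 to 509) in the epidermal library, 336 CPM (319 to 353) in the dermal library and 360 CPM (354 to 367) in lymph node. The epidermal sum was 1.43-fold the dermal sum (1.32 to 1.54), and the interval of epidermis did not overlap that of either other library. Each of the 18 enzymes had a ratio above 1 between epidermis and dermis, where 56.3% of all genes with at least 2 CPM did. Over the 9 enzymes with at least 20 CPM the median log2 ratio was 0.61, and over all 5880 such genes it was 0.05.

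The early enzymes turn acetyl-CoA into farnesyl diphosphate. Levels are listed in the order epidermis, dermis, lymph node from here on. Fdps makes farnesyl diphosphate, the last intermediate shared by cholesterol and the lipid anchors of proteins (chromosome 3, 89093588 to 89101959, mm10). It stood at 52.6 CPM (43.5 to 63.1), 24.4 (20.1 to 29.3) and 42.6 (40.4 to 44.9). Dermis was the low library, with an interval apart from both others, and the epidermal level was 2.16-fold the dermal one (1.65 to 2.82). Idi1, the isomerase that makes dimethylallyl diphosphate (chromosome 13, 8885501 to 8892451), stood at 30.8 CPM (23.9 to 39.1), 19.4 (15.6 to 23.9) and 14.1 (12.8 to 15.4). Here epidermis was highest and lymph node lowest, and the ratio of these was 2.19 (1.67 to 2.83). Hmgcs1, which makes HMG-CoA, was closer across libraries at 27.7, 21.0 and 18.6 CPM. Pmvk, the second mevalonate kinase, stood at 20.4, 11.9 and 13.9 CPM. Mvd, the decarboxylase, stood at 18.1, 12.1 and 18.7 CPM, Mvk, the first kinase, at 4.53, 4.10 and 7.38 CPM, and the thiolase gene Acat2 at 11.3, 8.64 and 12.9 CPM. These 3 were lowest in dermis and highest in lymph node. Acat2 has a near-identical neighbour gene, Acat3, that could share its reads, so its value is uncertain.

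The late enzymes close squalene into a ring and trim it to cholesterol. Sqle, the squalene epoxidase and a controlled step (chromosome 15, 59315077 to 59331192), stood at 16.3 CPM (11.4 to 22.6), 5.18 (3.32 to 7.71) and 9.63 (8.60 to 10.8). No library reached 20 CPM, so Sqle was not counted, although its ratio between epidermis and dermis was 3.15 (1.83 to 5.52). Of its epidermal UMIs, 44.4% lay in 5 cells. Genes counted as higher in epidermis were also concentrated. The 5 cells with the most UMIs of each gene held 38.2% of the epidermal UMIs of Idi1 and 35.4% for Cyp51. They held 31.9% for Fdps, 33.7% for the fatty acid gene Scd2 and 24.7% for the sensing gene Insig1. The intervals do not cover such unevenness between cells. Fdft1, the squalene synthase before it, stood at 21.3, 10.8 and 14.1 CPM, a ratio of 1.97 between the skin layers with a lower bound of 1.30. Cyp51, the lanosterol demethylase (chromosome 5, 4081145 to 4104746), showed another order: 35.8 CPM (28.4 to 44.6) in epidermis and 30.7 (25.8 to 36.1) in dermis, against 16.9 (15.5 to 18.3) in lymph node. Both skin layers lay above lymph node, and their own intervals overlapped. Msmo1, the C4 methyl oxidase, stood at 45.3, 29.8 and 28.1 CPM, with epidermis above the other two.

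Ebp, the sterol isomerase (chromosome X, 8185329 to 8193512), stood at 119 CPM (105 to 134), 101 (91.7 to 110) and 92.9 (89.6 to 96.3), and its epidermal level was 1.28-fold that of lymph node (1.12 to 1.45). Sc5d, the desaturase after it, and Dhcr7, which makes cholesterol in the last step of one branch, were highest in lymph node. Sc5d stood at 22.7, 14.9 and 28.2 CPM and Dhcr7 at 19.5, 13.8 and 21.5 CPM. The remaining late enzymes stayed under 20 CPM in each library: Nsdhl at 18.1, 16.2 and 13.7 CPM, Hsd17b7 at 7.26, 6.70 and 2.73, Lss at 4.53, 3.02 and 2.16, and Tm7sf2 at 3.63, 2.38 and 2.07. Each of these 4 was highest in epidermis and lowest in lymph node, but on 8 to 40 epidermal UMIs each. Tm7sf2 lies over Vps51 on the same strand, and so does the early enzyme gene Fdps over Gm43738. On the other strand Cyp51 lies over Akap9, Fdft1 over Ctsb, Mvd over Gm20388 and Lss over 4930483K19Rik. Reads of these pairs may mix.

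**Figure D1:**
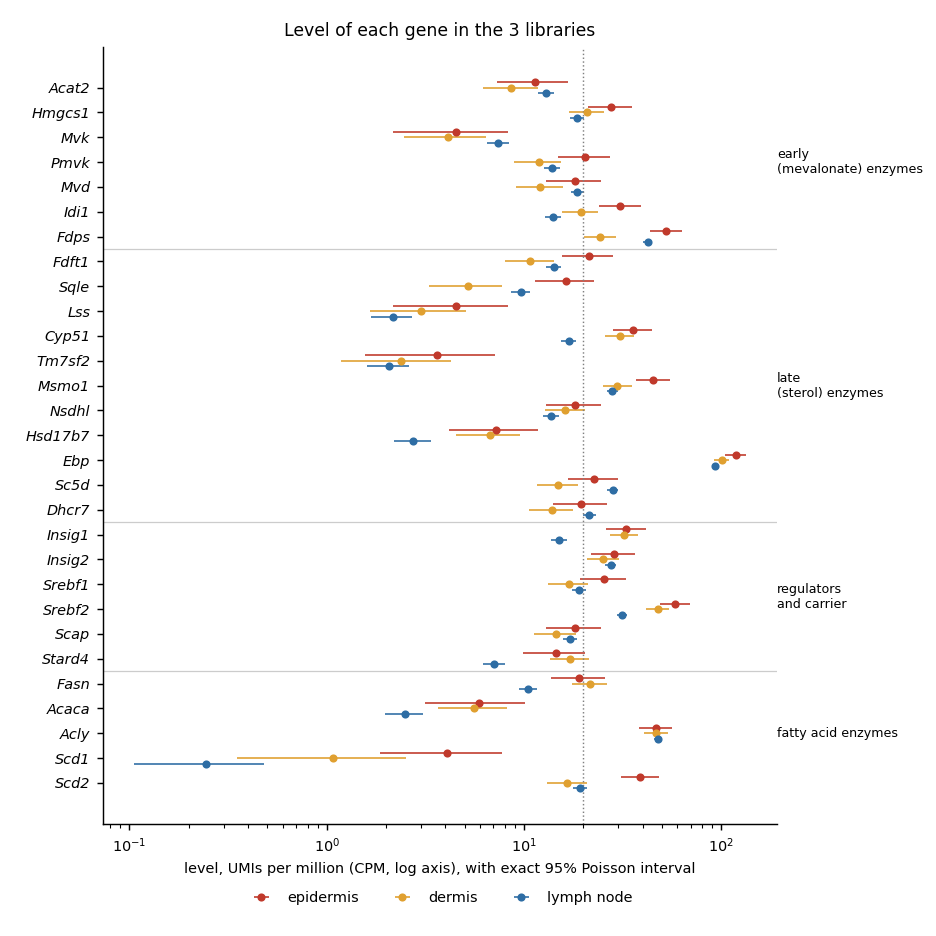
Level of each of the 29 genes in the 3 libraries, in CPM on a log axis with the exact 95% Poisson interval; the dotted line marks 20 CPM. Epidermis lies to the right of dermis for all 18 enzymes, while lymph node lies on either side.

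The proximal promoters of 5 enzymes are printed for a cell-by-cell comparison in lymph node given further on: Idi1, Cyp51, Hmgcs1 and Msmo1 had the highest ratios there among enzymes with a RefSeq window, and Ebp the lowest of all 18. They are the 250 bases before the start that RefSeq gives, 5′ to 3′ on the gene's strand, on GRCm38.p6. The gene spans in the text are from GENCODE, whose outermost start lies inside the windows of Idi1, Cyp51 and Msmo1. Capitals mark CCAAT on either strand (ATTGG on the other) and CACNCCAC, the core of a sterol regulatory element. They lie at chr13:8885356-8885605 (plus strand), chr5:4104698-4104947 (minus), chr13:119690101-119690350 (plus), chr8:64733579-64733828 (minus) and chrX:8193513-8193762 (minus).
Idi1: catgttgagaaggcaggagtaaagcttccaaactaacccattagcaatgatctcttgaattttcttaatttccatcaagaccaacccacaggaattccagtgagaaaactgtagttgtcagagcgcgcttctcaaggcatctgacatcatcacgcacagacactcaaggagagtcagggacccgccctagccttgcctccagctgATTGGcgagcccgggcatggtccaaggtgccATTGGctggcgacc
Cyp51: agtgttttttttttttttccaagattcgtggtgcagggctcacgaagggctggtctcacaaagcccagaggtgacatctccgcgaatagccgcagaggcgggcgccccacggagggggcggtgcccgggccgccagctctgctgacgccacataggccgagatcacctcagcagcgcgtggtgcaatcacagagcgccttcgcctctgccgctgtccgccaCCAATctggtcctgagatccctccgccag
Hmgcs1: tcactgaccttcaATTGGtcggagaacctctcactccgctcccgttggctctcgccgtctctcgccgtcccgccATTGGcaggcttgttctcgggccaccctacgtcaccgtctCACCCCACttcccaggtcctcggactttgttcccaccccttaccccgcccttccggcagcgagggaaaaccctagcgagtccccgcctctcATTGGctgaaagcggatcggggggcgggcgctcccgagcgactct
Msmo1: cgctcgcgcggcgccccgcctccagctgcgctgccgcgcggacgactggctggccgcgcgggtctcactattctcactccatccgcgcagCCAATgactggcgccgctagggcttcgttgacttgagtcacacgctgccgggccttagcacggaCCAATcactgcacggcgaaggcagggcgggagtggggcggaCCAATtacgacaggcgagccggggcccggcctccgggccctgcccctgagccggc
Ebp: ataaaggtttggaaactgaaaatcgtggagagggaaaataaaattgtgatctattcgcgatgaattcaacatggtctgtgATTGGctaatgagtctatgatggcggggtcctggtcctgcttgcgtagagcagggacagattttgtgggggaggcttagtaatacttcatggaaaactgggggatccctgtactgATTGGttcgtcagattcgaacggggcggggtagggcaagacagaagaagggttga
Idi1 and Ebp hold 2 CCAAT matches each, Hmgcs1 and Msmo1 3 each and Cyp51 1, and only the Hmgcs1 window of these 5 holds CACNCCAC, once. RefSeq windows of 300 bases, from 250 before to 50 after the start, matched 23 of the 29 genes. CCAAT was in 20 of these 23, and in 42.4% of 4803 expressed genes and 41.1% of all 27025 genes with a window. The GC box GGGCGG was also in 20 of 23, against 72.1% of expressed genes. CACNCCAC was in 3 (Acat2, Hmgcs1 and Insig1), against 7.62% of expressed genes, and the longer TCACNCCAC in 1 (Hmgcs1), against 1.29%. Both strands were searched, CACNCCAC lies within TCACNCCAC, and a match is a description of letters, not a binding site.

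Of the 6 sensing and transport genes, Insig1, Srebf2 and Stard4 were higher in both skin layers than in lymph node. Insig1, a brake on SREBP transport (chromosome 5, 28071363 to 28078662), stood at 33.1 CPM (25.9 to 41.6), 32.2 (27.2 to 37.8) and 15.1 (13.8 to 16.5). The skin layers overlapped, and their ratios to lymph node were 2.20 (1.69 to 2.81) and 2.14 (1.77 to 2.57). Srebf2 stood at 58.5 CPM (48.8 to 69.5), 47.7 (41.6 to 54.5) and 31.5 (29.6 to 33.5), which is 1.86-fold and 1.51-fold the lymph node level. Stard4, a carrier of cholesterol between membranes, stood at 14.5, 17.1 and 7.05 CPM. Insig2, the constitutive partner of Insig1, was level at 28.6, 25.3 and 27.5 CPM. Srebf1 stood at 25.4, 16.8 and 19.0 CPM and overlaps Rai1 on the other strand. Scap stood at 18.1, 14.5 and 17.2 CPM. The sum of all 6 was 178, 154 and 117 CPM.

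The fatty acid genes did not share a pattern. Acly, which frees acetyl-CoA from citrate for both arms, was level at 46.7 CPM (38.1 to 56.6), 46.9 (40.8 to 53.5) and 47.8 (45.5 to 50.2). Fasn, the fatty acid synthase (chromosome 11, 120805846 to 120824547), stood at 19.0 CPM (13.7 to 25.7), 21.6 (17.6 to 26.3) and 10.5 (9.41 to 11.7), so both skin layers lay above lymph node. Acaca, which makes malonyl-CoA, did the same at 5.90, 5.62 and 2.49 CPM. Scd2, a desaturase that makes monounsaturated fatty acids (chromosome 19, 44293674 to 44306864), was high in epidermis alone, at 39.0 CPM (31.2 to 48.2) against 16.6 (13.1 to 20.8) and 19.3 (17.8 to 20.9). The 26 cells outside the gate held 14 of its 86 epidermal UMIs, and inside the gate its epidermal level was 32.9 CPM and its lymph node level 19.4 CPM. Scd1, the main desaturase of liver and fat, had 9, 5 and 8 UMIs in all. Of the 9 epidermal Scd1 UMIs, 4 lay outside the gate, which leaves 2.28, 0.882 and 0.153 CPM.

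Between epidermis and dermis, 16 of the 29 genes had at least 20 CPM in 1 of the libraries. Of these, 2 were counted as higher in epidermis, Fdps and Scd2, and none as lower. Of all 5880 genes at this level, 3.74% were counted as higher and 3.84% as lower. The median log2 ratio of the 16 was 0.50, and 14 of them were above 0, where 54.6% of all genes were. With the T cell gate the median was 0.30, Fdft1 joined the other two, and all 18 enzymes kept ratios above 1.

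The size of the epidermal excess depended on the cells summed. Without the cycling-like cluster of each library, described with the clusters, the 18 enzymes stood at 399 CPM (370 to 430) in epidermis, or 394 CPM with the gate, and 325 CPM (308 to 343) in dermis. Then 13 of 18 were above 1, at a median log2 ratio of 0.31, and neither Fdps nor Scd2 reached 2-fold. Without the barcodes that the skin libraries shared, the sums were 379 CPM (350 to 410) and 331 CPM (314 to 348), and again 13 of 18 were above 1 at a median of 0.18. That choice kept 255 epidermal cells, with 1660569 of the 2205131 epidermal UMIs. A milder choice left out only the shallower copy of each shared barcode. Of the 29 genes 15 then had at least 20 CPM, with 14 above 0 at a median log2 ratio of 0.39. Fdps, Fdft1 and Scd2 reached 2-fold under that milder choice. With each cell given the same weight, as the mean of each cell's CPM over the 262 epidermal and 828 dermal cells with 1500 UMIs or more, the enzymes stood at 421 and 327 CPM. All 262 of these epidermal cells lay inside the T cell gate. A single random thinning of the same cells to 1500 UMIs gave 331 CPM (276 to 393) and 329 CPM (297 to 362), with 8 of 18 above 1. That draw held 130 epidermal enzyme UMIs where 165.6 would be drawn on average, so its epidermal value lies under the average of such draws. By depth, epidermal cells were high at both ends. Those with 12000 UMIs or more (33 cells) stood at 666 CPM (603 to 733), those from 6000 to under 12000 at 375 CPM (341 to 412), those from 3000 to under 6000 at 370 CPM (308 to 441) and those from 1500 to under 3000 (21 cells) at 615 CPM (415 to 877). The 35 cells under 1500 UMIs, which include the 26 outside the gate, stood at 1835 CPM. The same depths in dermis, in that order, gave 382 CPM (333 to 435), 353 CPM (323 to 385), 306 CPM (283 to 329), 340 CPM (271 to 421) and 629 CPM. The 20 cycling markers summed to 4014 and 966 CPM in the deepest and next epidermal cells, to 922 CPM in those from 1500 to under 3000 UMIs, and to 1092 and 760 CPM in the deepest and next dermal cells, and their part in the result was not tested. When each cell with 3 or more cycling UMIs was left out instead, 91 epidermal and 401 dermal cells were kept. The enzyme sums were then 485 CPM (413 to 566) and 332 CPM (305 to 362), about as far apart as with all cells. That choice was made without the T cell gate, and its epidermal sum rested on 161 UMIs. The 26 epidermal cells outside the gate held 39 enzyme UMIs, and how many of these cells it kept was not counted. A fixed number of UMIs also drops deep cells more readily than shallow ones.

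Within cells marked by Xist, the enzymes summed to 453 CPM (408 to 501) in epidermis and 324 CPM (307 to 343) in dermis. Within cells with Y-linked transcripts alone they summed to 449 CPM (404 to 497) and 422 CPM (351 to 503), on 55 dermal cells, and these intervals overlap. The median log2 ratio of the enzymes with at least 20 CPM was 0.87 in the first group, with 11 of 11 above 0, and -0.28 in the second, with 4 of 10 above 0.

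**Figure D2:**
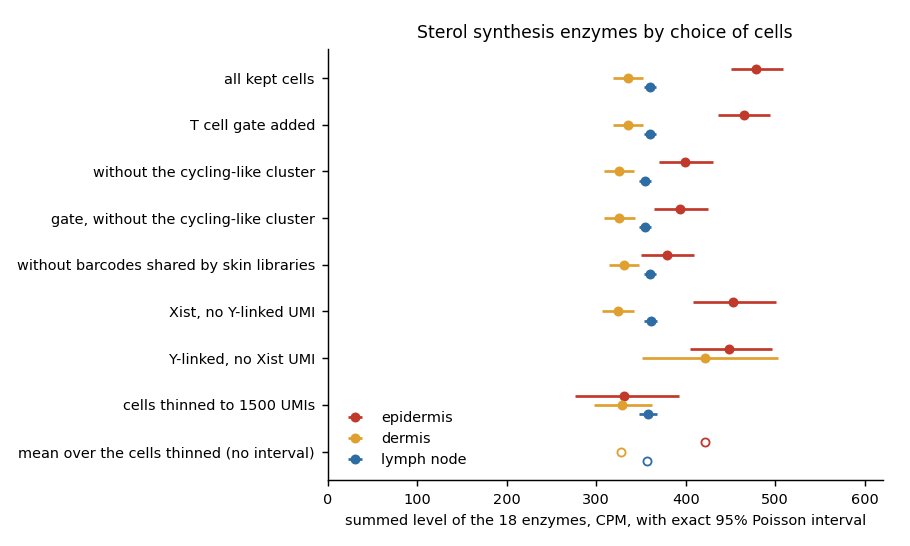
Summed level of the 18 sterol synthesis enzymes in each library, in CPM with the exact 95% Poisson interval, under 8 choices of cells, and as the mean over the cells that were thinned (open points, no interval). Of the choices plotted, epidermis and dermis lie farthest apart with all kept cells, at 479 and 336 CPM, and meet in the single thinning draw, at 331 and 329 CPM, where the means of the same cells are 421 and 327 CPM; lymph node has no cell with Y-linked transcripts alone.

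Compared with lymph node, epidermal Tregs carried more of Idi1, Cyp51, Insig1 and Scd2. These 4 of the 16 genes with at least 20 CPM were counted as at least 2-fold higher and none as lower, where 19.7% of all 5893 genes were higher and 3.11% lower. The share of higher genes, 4 of 16, was thus near the background. The median log2 ratio was 0.56 over the 16 genes and 0.19 over all genes, and 13 of the 16 lay above 0, against 60.4% of all genes. Inside the T cell gate Idi1, Cyp51 and Insig1 still reached 2-fold and Scd2 did not. Without the cycling-like clusters Insig1 alone did. Among genes under 20 CPM in both libraries, Hsd17b7 was 2.65-fold higher (1.45 to 4.55) and Acaca 2.37-fold (1.21 to 4.27).

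Dermal Tregs had 2 of 12 genes at least 2-fold above lymph node, Insig1 and Fasn, with Fasn at 2.06-fold (1.63 to 2.58), and none below. The background was 24.6% higher and 9.38% lower among 5940 genes, and the median log2 ratio was 0.10 over the 12 genes and 0.16 over all. Of the 12, 7 lay above 0, against 55.9% of all genes. With the gate Fasn no longer reached 2-fold. Several enzymes leaned to lymph node without reaching 2-fold: the dermal level was 0.529-fold that of lymph node for Sc5d (0.408 to 0.676), 0.573-fold for Fdps (0.469 to 0.695) and 0.644-fold for Dhcr7 (0.491 to 0.833). Cyp51 leaned the other way at 1.82-fold (1.502 to 2.19). So 9 of the 18 enzymes lay above 1 and 9 below, where 56.8% of genes with 2 CPM or more lay above. The comparisons with lymph node share that library, and their values are given side by side only.

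The scaling moved these comparisons. Under TMM the median log2 ratio of the genes was -0.09 for epidermis against lymph node and -0.45 for dermis, where all genes stood at -0.35 and -0.30. Under median-of-ratios scaling they were 0.05 and -0.29, with all genes at -0.23 and -0.17. The share of all genes at least 2-fold higher and lower became 9.68% and 14.0% for epidermis and 15.6% and 21.6% for dermis under TMM, and 11.3% and 10.2%, and 17.9% and 17.3%, under median-of-ratios. Under either scaling none of the 29 was counted as at least 2-fold higher than in lymph node, and under TMM 4 were counted as lower in dermis. Between skin layers both scalings kept Fdps and Scd2 as higher, with a median of 0.24 against -0.06 over all genes.

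**Figure D3:**
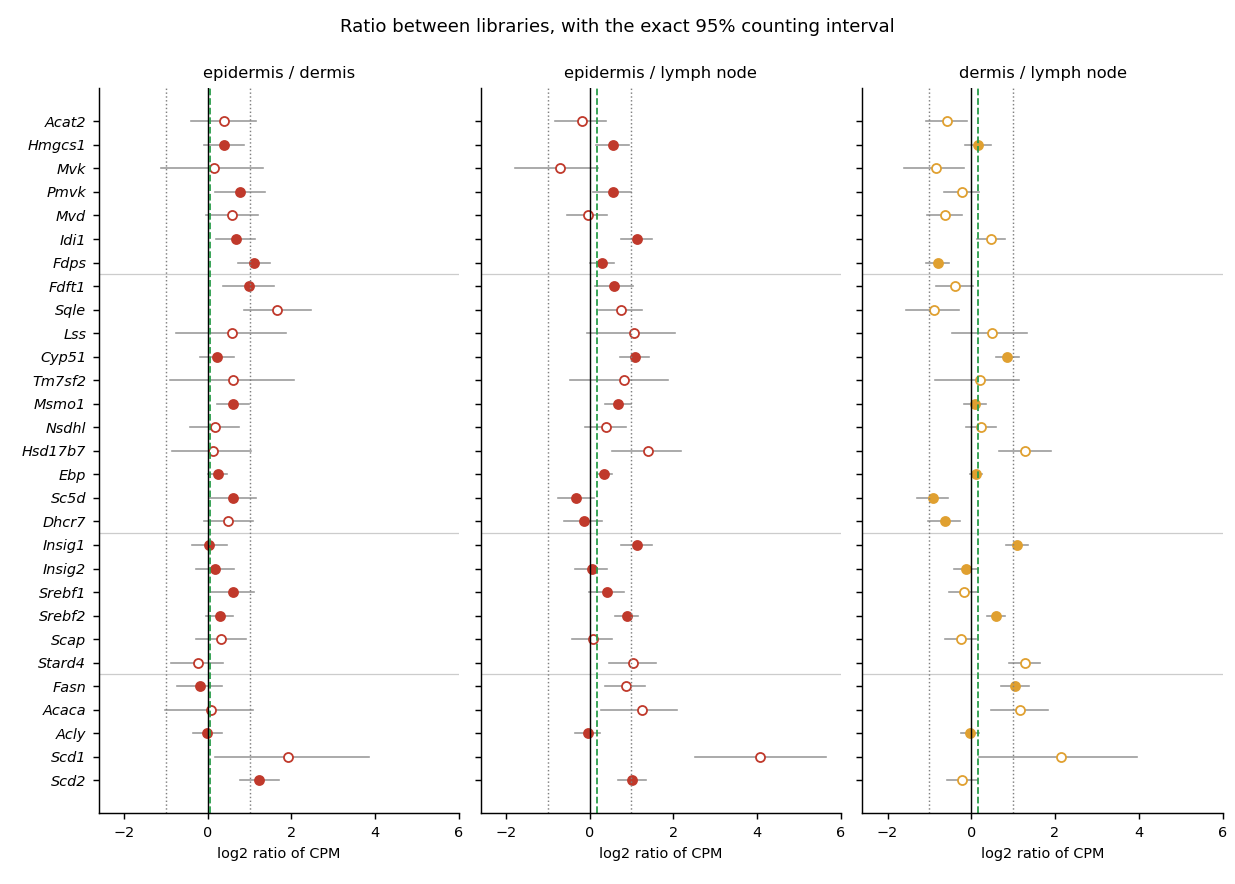
Log2 ratio of CPM for each gene in the 3 comparisons with its exact 95% counting interval; filled points have at least 20 CPM in 1 library, dotted lines mark 2-fold and the dashed green line the median of all genes. Filled points of the enzymes lie right of 0 between epidermis and dermis, and on both sides between dermis and lymph node.

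Other genes of sterol and fatty acid handling, a list of 50, were set beside these. In epidermis against lymph node 21 of the 50 had 20 CPM or more, and 6 of these were counted as higher and none as lower, beside 19.7% and 3.11% of all genes. Among these were Osbp, a sterol sensor and carrier, at 4.31-fold, the sterol-responsive Tmem97 at 3.30-fold, Soat1, which stores cholesterol as esters, at 3.06-fold, the citrate carrier Slc25a1 at 2.61-fold and Fdxr at 2.03-fold. In dermis against lymph node 6 of 20 were higher and none lower, beside 24.6% and 9.38% of all genes; among them were the phosphatidate phosphatase Lpin1 (4.74-fold), the fatty acid elongase Elovl6 (3.75-fold), Soat1 (2.81-fold), Mid1ip1 (2.59-fold) and the lysosomal cholesterol exporter Npc1 (2.03-fold). Between skin layers 1 of 22 was higher and 2 were lower, beside 3.74% and 3.84% of all genes. Tmem97 was 2.36-fold higher in epidermis, while Lpin1 stood at 0.362-fold (0.239 to 0.532) and Elovl6 at 0.448-fold (0.269 to 0.716) of dermis. Over the list, the median log2 ratio between epidermis and dermis was 0.01.

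Within each library, sterol enzymes were highest in the cluster marked by cell cycle genes. Cells were clustered in each library without the 29 genes and the 50 others. A cluster was called cycling-like when at least 3 of 20 cell cycle markers were among its 10 leading genes, and each library had 1. This cluster had the highest enzyme level in every library. It stood at 772 CPM (40 cells), 496 CPM (48 cells) and 563 CPM (90 cells). Set against the other cells of the library, that was 1.94-fold (1.70 to 2.20), 1.53-fold (1.27 to 1.82) and 1.59-fold (1.44 to 1.74). It held 21.4%, 6.14% and 2.52% of the library's UMIs. In epidermis 12 of its 40 cells lay outside the T cell gate, and inside it stood at 729 CPM.

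In the epidermal cycling-like cluster 11 of the 22 genes at 20 CPM or more reached 2-fold over the other cells, where 13.6% of all genes were. They were Acat2, Pmvk, Idi1, Fdps, Fdft1, Sqle, Cyp51, Nsdhl, Stard4, Fasn and Scd2. In lymph node they were 6 of 18 (Acat2, Idi1, Fdps, Cyp51, Stard4 and Fasn) against 10.7%, and in dermis 3 of 16 (Pmvk, Fdft1 and Dhcr7) against 11.8%. Idi1 stood at 3.90-fold in epidermis and 2.77-fold in lymph node, and Fdps at 2.99-fold and 2.09-fold. Hmgcs1 stood at 1.66-fold, 0.658-fold and 0.837-fold in epidermis, dermis and lymph node. The SREBP-2 gene Srebf2 stood at 0.841-fold, 0.956-fold and 0.682-fold and Insig1 at 0.653-fold, 0.754-fold and 0.795-fold. The carrier gene Stard4, by contrast, was among those at 2-fold in epidermis and lymph node. With 6.14% and 2.52% of the UMIs in the dermal and lymph node clusters, single-gene ratios there rest on few UMIs.

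Among the other clusters, epidermal cluster 0 was the lowest, at 247 CPM (205 to 295) in 71 cells, or 235 CPM in its 65 gated cells, and 0.452-fold the other cells (0.371 to 0.546). Its leading genes included Bcl2, Satb1, Tcf7 and Ccr7, known from resting lymphoid T cells, and also the airway gene Scgb1a1. Its resting markers summed to 3617 CPM, against 503 to 1540 CPM in the other epidermal clusters. In it Idi1 stood at 0.158-fold, Fdps at 0.323-fold, Msmo1 at 0.339-fold and Ebp at 0.477-fold of the other cells. In lymph node, cluster 4 (998 cells), led by Gzmb, S100a4, Ccr2 and Klrg1, stood at 428 CPM, 1.22-fold the other cells (1.16 to 1.29). There Ebp stood at 1.76-fold, while Fdps stood at 0.750-fold and Idi1 at 0.806-fold. Dermal clusters other than the cycling-like one lay between 290 and 368 CPM.

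**Figure D4:**
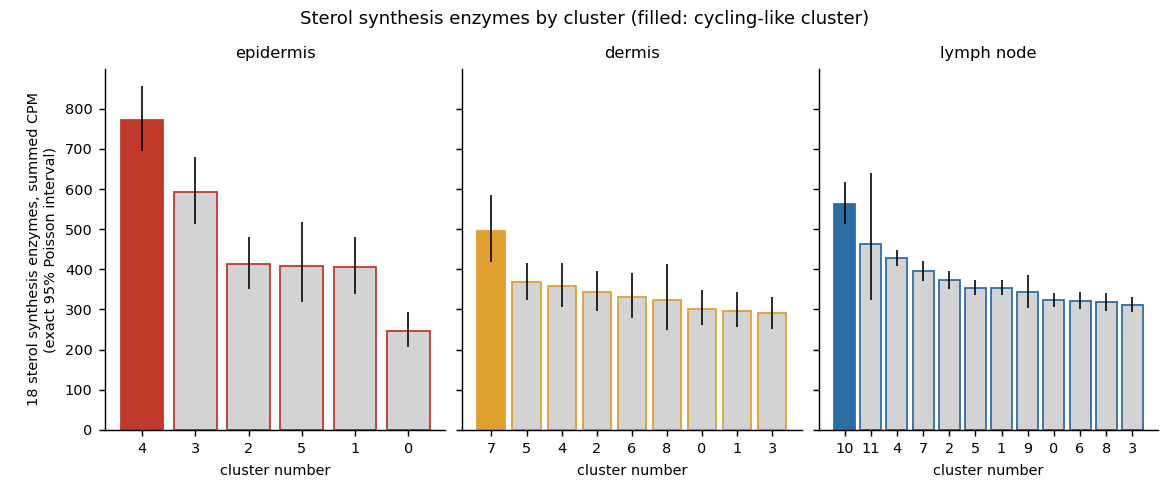
Summed CPM of the 18 sterol synthesis enzymes in each cluster of each library, ordered by level, with the exact 95% Poisson interval; filled bars are the cycling-like clusters. The filled bar is the first in each library, at 772, 496 and 563 CPM, and epidermal cluster 0 is the lowest at 247 CPM.

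In lymph node, transcripts of the sterol enzymes were found in the same cells. For each gene, cells with at least 1 of its UMIs were set against cells with none, and the summed CPM of the other enzymes was compared; this comparison was chosen after the data were seen and is a description within 1 library. The 280 cells with a Sqle UMI carried the other 17 enzymes at 734 CPM, against 335 CPM in cells without, a ratio of 2.19 (2.05 to 2.34). The ratio was 2.07 for Idi1 (410 cells), 1.92 for Cyp51 (472 cells), 1.84 for Hmgcs1 (522 cells), 1.66 for Fdft1, 1.62 for Msmo1 and 1.57 for Fdps. The median over the 18 enzymes was 1.36, and over 8229 other genes found in a like number of cells it was 1.04. Of these other genes 0.486% reached the enzymes' median, among them the cell cycle genes Ncapg, Ccnb1 and Rrm2, named after their values were seen.

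Not all genes of the pathway took part alike. Ebp, found in 2481 cells, stood at 1.04 (0.993 to 1.09). Tm7sf2 stood at 1.04 and, of the fatty acid genes, Acly at 1.05, Scd2 at 1.05 and Fasn at 1.13, all under the 95th percentile of other genes, 1.18. Among the sensing and transport genes, Insig1 stood at 1.55, Stard4 at 1.45 and Srebf2 at 1.19. Srebf1 stood at 1.08, Insig2 at 1.09 and Scap at 1.13.

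The ratios changed little without the cycling-like cluster, whose 90 cells held 2.52% of the UMIs. Leaving out so small a part could move them little, and the role of cycling was not tested. In gated lymph node cells outside the cycling-like cluster Sqle stood at 2.23, Idi1 at 2.11, Cyp51 at 1.93 and Ebp at 1.00, and the median was 1.37 over enzymes and 1.02 over other genes. Without the 5 cells holding the most enzyme UMIs, the median over enzymes was 1.30. Cells with a Sqle UMI were somewhat deeper, at a median of 3605.5 against 3008 UMIs. After thinning to 1500 UMIs the median was 1.505 over 15 enzymes and 1.02 over other genes. In dermis the pattern was weak: 11 enzymes were in at least 50 cells, with a median ratio of 1.16 against 1.02 over other genes, which is under the 95th percentile of other genes there, 1.17, and 6.26% of them reached it. After thinning, 1 dermal enzyme was left, Ebp, at 1.07. Epidermis had 3 such enzymes among its 297 cells (Msmo1 at 2.18, Fdps at 1.80 and Ebp at 1.58), where other genes stood at 1.18. Without the 5 epidermal cells holding the most enzyme UMIs their median was 1.43 against 1.00, and with the gate and no cycling-like cluster Ebp alone was left, at 1.42.

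**Figure D5:**
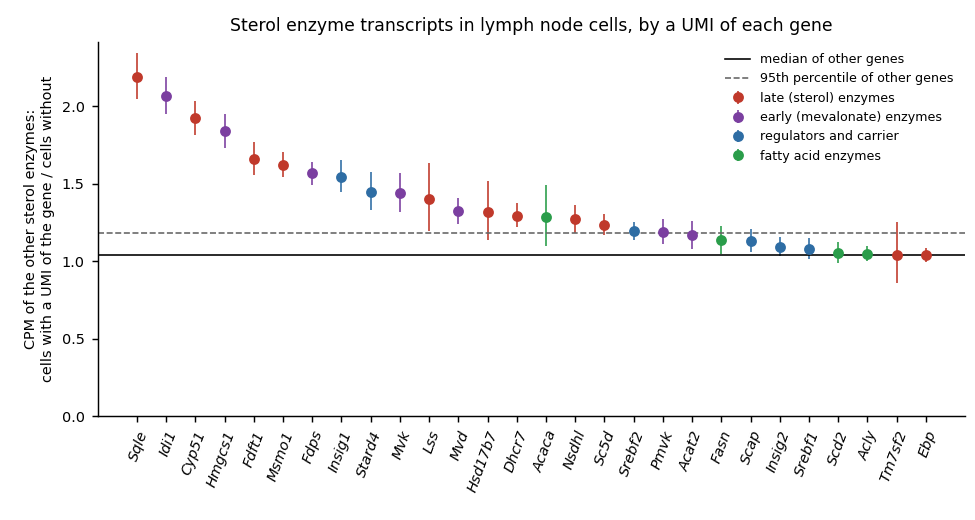
Ratio of the summed CPM of the other sterol synthesis enzymes in lymph node cells with a UMI of each gene to that in cells without, with the exact 95% counting interval; the lines mark the median and the 95th percentile of 8229 other genes. Sqle, Idi1, Cyp51 and Hmgcs1 lie highest, from 2.19 to 1.84, and Ebp, Tm7sf2 and Acly lie on the median line.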

How the data were processed

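UMI counts per gene and cell barcode were used as the authors deposited them, in 1 sparse matrix for each tissue. Per the file headers the skin matrices came from Cell Ranger 4.0.0, and the genome build was mm10 per the submitters' processing notes; the sources used here do not give how strand was counted. Kits and sorting are per the labels' protocols. Cells were filtered on depth and mitochondrial share as the report states, which left totals of 2205131, 4630059 and 32906839 UMIs; doublets were not called. No column of per-sample values was left unmapped. The members and lists were chosen with earlier results of these data known. Genes outside the 29 were named by rule when they reached 2-fold with 20 CPM, at most 6 in each comparison, largest first; some genes that met this rule are not reported here. Clusters used Leiden at resolution 1 on 1500 variable genes, 20 components and 15 neighbours (scanpy 1.11.5, leidenalg 0.10.2). TMM factors came from edgeR 4.0.16 in R 4.3.3, used for scaling only; the other steps used Python 3.11.15, numpy 2.4.6, pandas 2.3.3, scipy 1.17.1 and matplotlib 3.10.9. Gene positions are from GENCODE vM21. On simulated counts with 200 genes changed 3-fold, the rule recovered 100% of higher and 99.0% of lower genes for epidermis against dermis, over 5302 genes. These counts had Poisson error only. The simulation therefore checks the calculation and does not cover variation between cells or libraries, or ratios near 2-fold. Alternatives covered the choice of cells, scaling, depth and the limit on low values.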

Additional observations from a re-analysis of the deposited data

How the results depend on the processing

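No paired analysis was possible because each tissue had 1 library, and no replicate could be left out. Between epidermis and dermis, the count of genes at least 2-fold higher, 2 as reported, was 0 with a mitochondrial limit of 5%, without cells above the 95th UMI percentile, without all shared barcodes and without the cycling-like clusters, with or without the T cell gate. It was 1 in thinned cells, with a limit of 50 CPM and as a mean over cells with at least 1500 UMIs, 3 with the gate, 4 with totals lacking mitochondrial and ribosomal protein genes or with no limit, 5 without cells with 3 or more cycling UMIs, and 8 as the mean of each cell's CPM. Thinning gave 1 lower gene, Cyp51. Between epidermis and lymph node, the median log2 ratio, 0.56 as reported, was -0.0932 under TMM, 0.0519 under median-of-ratios and 1.16 as the mean of each cell's CPM. The higher count, 4 as reported, was 0 in cells with a Foxp3 UMI, under TMM, median-of-ratios and the reduced totals, and at 50 CPM. It was 1 without the deepest cells, in thinned cells, without shared barcodes and without the cycling-like clusters, with or without the gate. It was 2 over cells with at least 1500 UMIs and 8 without cells with 3 or more cycling UMIs. With no limit it was 9, and as the mean of each cell's CPM it was 11. Thinning gave 2 lower genes, and Cyp51 reversed there to -0.10. Between dermis and lymph node, the median, 0.10 as reported, reversed to -0.45 under TMM, -0.29 under median-of-ratios, -0.37 with the reduced totals and -0.00931 in thinned cells. The higher count, 2 as reported, was 1 with the gate, in cells with a Foxp3 UMI and without the deepest cells. It was also 1 without cells with 3 or more cycling UMIs, as both means over cells, and with the gate and no cycling-like cluster. It was 0 under the 3 scalings, in thinned cells and at 50 CPM, and 6 with no limit. The lower count, 0 as reported, was 1 without the deepest cells and over cells with at least 1500 UMIs, 2 in cells with Xist, with median-of-ratios and with the reduced totals, and 4 under TMM. The cause was not tested. Thinning was a single random draw, which held 130 epidermal enzyme UMIs where 165.6 would be drawn on average, so its epidermal values are low for the enzymes. The choices on shared barcodes, the cycling-like cluster, cells with at least 1500 UMIs Y-linked cells and the mean enzyme level over cells were added after the data were seen. Few epidermal cells limit the precision: 33 of them held 27.9% of its UMIs.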
